A study of Drosophila melanogaster with 6 samples.

Results

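The Hippo pathway core genes are described here in mushroom body output neurons that carry either a sponge for the microRNA bantam or a scrambled sponge. They were taken by gene symbol from the authors' deposited table of 17117 genes, in which all 10 were found: hpo, sav, wts, mats, yki, sd, kibra, Mer, ex and ft. All 10 had reads in at least 1 library, against 9286 of the 17117 genes.

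In Drosophila the kinase Hippo, held by the scaffold Salvador, phosphorylates the kinase Warts, which works with its cofactor Mats. Active Warts phosphorylates the coactivator Yorkie and keeps it out of the nucleus; free Yorkie binds DNA through Scalloped and switches on growth and survival genes, bantam among them. Kibra, Merlin and Expanded at the cell cortex and the large cadherin Fat feed signals into the kinases, and in larval sensory neurons hpo and wts are known for the maintenance of dendrites.

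Both genotypes carried UAS-CD8::GFP and the split-GAL4 parts R14C08-p65.AD and R15B01-GAL4.DBD, a pair of enhancer fragments known together as MB011B, which labels output neurons of 3 types, γ5β′2a, β′2mp and the bilateral β′2mp cells. One genotype carried UAS-bantam_sponge opposite both parts and the other UAS-scramble_sponge. The sponge was thus expressed where the driver is active, and the same driver marked the cells for sorting. Flies were mated females aged 3 to 4 days, brains were taken from ZT12 to ZT13.5, and poly(A) RNA of the sorted neurons was sequenced in 3 libraries per genotype. The labels call these biological replicates, with no number of brains stated.

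The authors' deposited table gives 1 log2 fold change, with bantam sponge over scramble sponge, 1 mean log2 CPM (reads scaled to a common depth) and 1 exact test p-value per gene. Its digits are fine enough for the reads per library to be solved back for 8 of the 10 core genes. Effective library sizes were 119.1, 43.8 and 8.18 megareads with the bantam sponge and 98.0, 43.6 and 5.31 megareads with the scramble sponge, a range of 22.4 times. Libraries are therefore called deepest, middle and shallowest of their genotype; which replicate number or sequencing platform each one is, is not known. A library without a read can hold up to 3 reads' worth of a transcript, which is 0.0252 CPM in the deepest library and 0.565 CPM in the shallowest. The floors cover counting error alone: after 25 cycles of PCR, reads of 1 molecule can be counted many times. In sorted bulk samples, fewer cells of a type and less RNA per cell cannot be told apart.

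Neuronal markers were abundant, and glial markers were present as well. The 5 neuronal markers (elav, nSyb, Syt1, brp and VGlut, the last the vesicular glutamate transporter) had summed levels of 4286 CPM with the bantam sponge and 4470 CPM with the scramble sponge. The summed level of 4 glial markers, all with reads, was 1436 CPM against 756 CPM; most of it was Gs2, a glutamine synthetase, inferred at 1271 CPM against 541 CPM. Of the 4, 3 had a log2 fold change above 0 in the authors' deposited table, where 53.5% of all genes with reads lay below 0. None of the 4 reached an unadjusted edgeR exact test p of 0.05, against 4.18% of all genes with reads. Of the 3, moody had all its 2762 reads in the deepest bantam sponge library. The fourth, the glial identity gene repo, had a log2 fold change of −6.70 in the authors' deposited table (edgeR exact test, unadjusted p = 0.0525).

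No core gene passed the test for a difference between genotypes. After Benjamini-Hochberg adjustment of the deposited edgeR exact test p-values over all 17117 genes, 0 core genes and 0.00% of all genes had an adjusted p under 0.05, and every core gene had an adjusted p of 1. At an unadjusted p under 0.05 the count was 1 core gene, sav, which was lower with the bantam sponge. Of the 9286 genes with reads, 4.18% reached that p in either direction, 3.12% lower and 1.06% higher. Among the 1022 genes within 0.5 log2 CPM of sav, 13.0% reached it in either direction. At an unadjusted p under 0.1 the count was 4 core genes (sav, Mer, hpo and mats), against 9.06% of genes with reads. The log2 fold change was above 0 for 4 core genes and below 0 for 6, against 53.5% of all genes with reads below 0. The median over the 10 was −1.40, or −1.98 over 9 with ex left out for its single read and kibra set at its lower bound, beside −0.13 over all genes with reads.

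**Figure D1:**
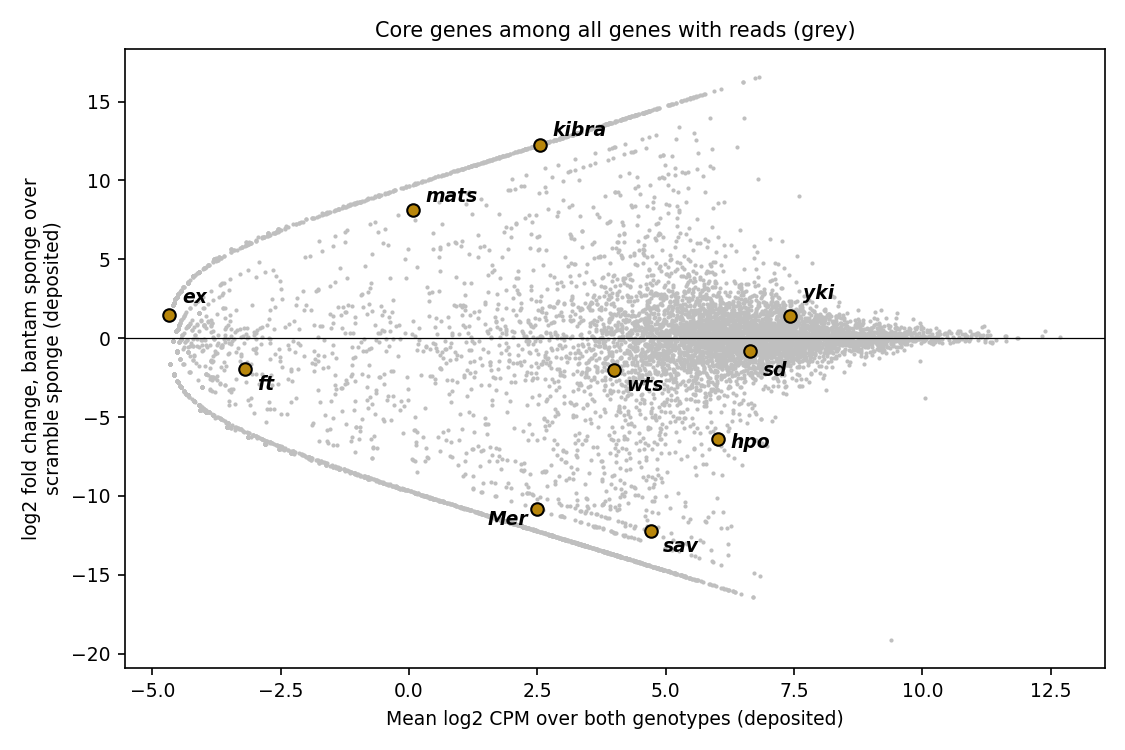
Deposited log2 fold change against deposited mean log2 CPM for the 9286 genes with reads, in grey, with the 10 core genes marked; positive values are higher with the bantam sponge. The curved edges are genes with no read in 1 genotype; kibra and ex lie on the upper one, Mer, sav and mats close to an edge, and yki and sd in the dense cloud near 0.

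The core genes differed widely in level. Levels can be compared between genes only per length, so the mean CPM of both genotypes was divided by the kilobases of annotated exon. On that scale yki led with 112.5 CPM per kb, followed by hpo with 23.2, sav with 11.7 and sd with 11.4. Then came wts with 2.72, Mer with 1.65, kibra with 1.01 and mats with 0.589. At the bottom ft stood at 0.00444 and ex at 0.00021 CPM per kb. From hpo down to ex, with sd aside, every gene was without a read in at least 1 library, so their ranges over libraries overlapped. The spread of yki and sd is not known, and levels were not tested between genes.

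**Figure D2:**
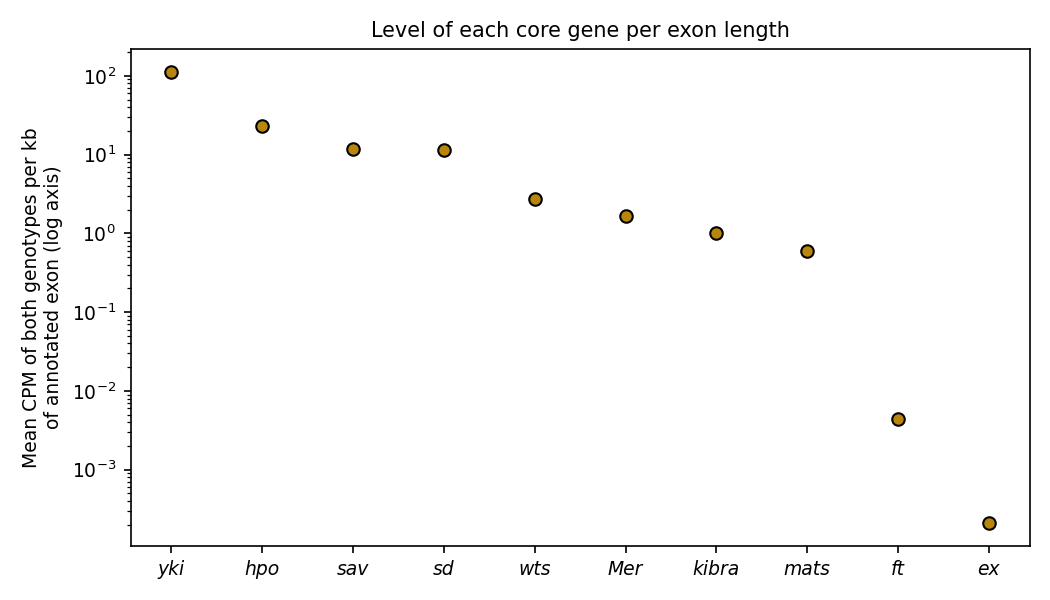
Mean CPM of both genotypes per kb of annotated exon, on a log axis, for each of the 10 core genes. Levels run from 112.5 for yki to 0.00021 for ex, the latter set by a single read.

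The transcripts of the Hippo kinase and its scaffold were found almost wholly in scramble sponge libraries, yet not in all 3 of them. For hpo (FBgn0261456; 2R, 19493996 to 19496856, minus strand, dm6), the kinase that names the pathway, the bantam sponge libraries held 532, 3 and 0 reads from deepest to shallowest, which is 4.47, 0.0686 and 0 CPM. The scramble sponge libraries held 27347, 4663 and 0 reads, or 279 and 107 CPM in the deeper 2 and 0 in the shallowest. The deeper 2 scramble sponge libraries thus stood above every bantam sponge library, while the shallowest libraries of both genotypes had no read and the groups overlapped. Means were 1.51 ± 2.56 CPM (SD, n = 3) with the bantam sponge and 129 ± 141 CPM (SD, n = 3) with the scramble sponge. The authors' deposited table gives a log2 fold change of −6.40 with an edgeR exact test p of 0.0939, and the 95% interval that this p implies runs from −14.32 to 1.52. Without the deepest bantam sponge library the log2 ratio of the mean CPMs went from −6.41 to −11.87. Of 1390 genes within 0.5 log2 CPM of hpo, 6.76% had a larger absolute log2 fold change. Exons of hpo share 130 bases (4.64%) with Rep, a gene on the opposite strand, whose reads could not be told apart from those of hpo unless counting used strand, which the sources used here do not state.

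For sav (FBgn0053193; 3R, 23058609 to 23061304, minus strand, dm6), the scaffold that holds Hippo and Warts together, the bantam sponge libraries held 0, 1 and 0 reads. The scramble sponge libraries held 8655, 0 and 363 reads, which is 88.3, 0 and 68.4 CPM from deepest to shallowest. Of the 3 scramble sponge libraries 2 were high. The middle one had no read, at a floor of 0.0689 CPM, and could not be told from the bantam sponge libraries, so the groups overlapped. Means were 0.00762 ± 0.0132 CPM (SD, n = 3) against 52.2 ± 46.3 CPM (SD, n = 3). Pooled over libraries, the level was 10498 times higher with the scramble sponge, with an exact counting interval of 1884 to 414709 that covers the reads of these libraries only. The authors' deposited table gives a log2 fold change of −12.22 and an edgeR exact test p of 0.0368, adjusted p of 1. When each library was left out in turn, the log2 ratio of the mean CPMs of sav ran from −13.33 to −12.13 where both genotypes kept a read. Of the 1022 genes within 0.5 log2 CPM of sav, 16.9% had a larger absolute log2 fold change. A stretch of 73 exonic bases of sav (3.27%) lies also in Ctns, on the same strand.

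Warts and its cofactor had log2 fold changes of opposite sign, and neither reached an unadjusted p of 0.05. For wts (FBgn0011739; 3R, 30789625 to 30806619, minus strand, dm6), the kinase that phosphorylates Yorkie, bantam sponge libraries held 13, 107 and 131 reads, which is 0.109, 2.45 and 16.0 CPM from deepest to shallowest. Scramble sponge libraries held 5444, 0 and 110 reads, or 55.5, 0 and 20.7 CPM. The deepest scramble sponge library was the highest, the middle one was the only library without a read, and the groups overlapped. Means were 6.19 ± 8.59 CPM (SD, n = 3) and 25.4 ± 28.1 CPM (SD, n = 3). The authors' deposited table gives a log2 fold change of −2.04 for wts (edgeR exact test p = 0.602; 95% interval −12.26 to 8.18). This absolute fold was smaller than that of 66.5% of the 773 genes within 0.5 log2 CPM. The log2 ratio of the mean CPMs was −2.04; without the deepest scramble sponge library it was −0.74, and without the shallowest bantam sponge library −4.32.

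For mats (FBgn0038965; 3R, 22421161 to 22423302, plus strand, dm6), the Mob protein that activates Warts, the bantam sponge libraries held 27, 255 and 0 reads, which is 0.227, 5.83 and 0 CPM. The only scramble sponge read lay in the deepest library, at 0.0102 CPM. Reads were thus nearly all in the deeper 2 bantam sponge libraries, the middle one with 96.1% of the summed CPM, and the groups overlapped at 0. Means were 2.02 ± 3.30 CPM (SD, n = 3) and 0.00340 ± 0.00589 CPM (SD, n = 3). Pooled, the level was 242 times higher with the bantam sponge (exact counting interval 43.1 to 9601). In the authors' deposited table mats has a log2 fold change of 8.11 and an edgeR exact test p of 0.0971. At the low level of mats large folds were common: of the 211 genes within 0.5 log2 CPM, 61.6% had a larger absolute log2 fold change and 47.4% had all their reads in 1 library. The log2 ratio of the mean CPMs was 9.21, and 5.06 without the middle bantam sponge library.

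**Figure D3:**
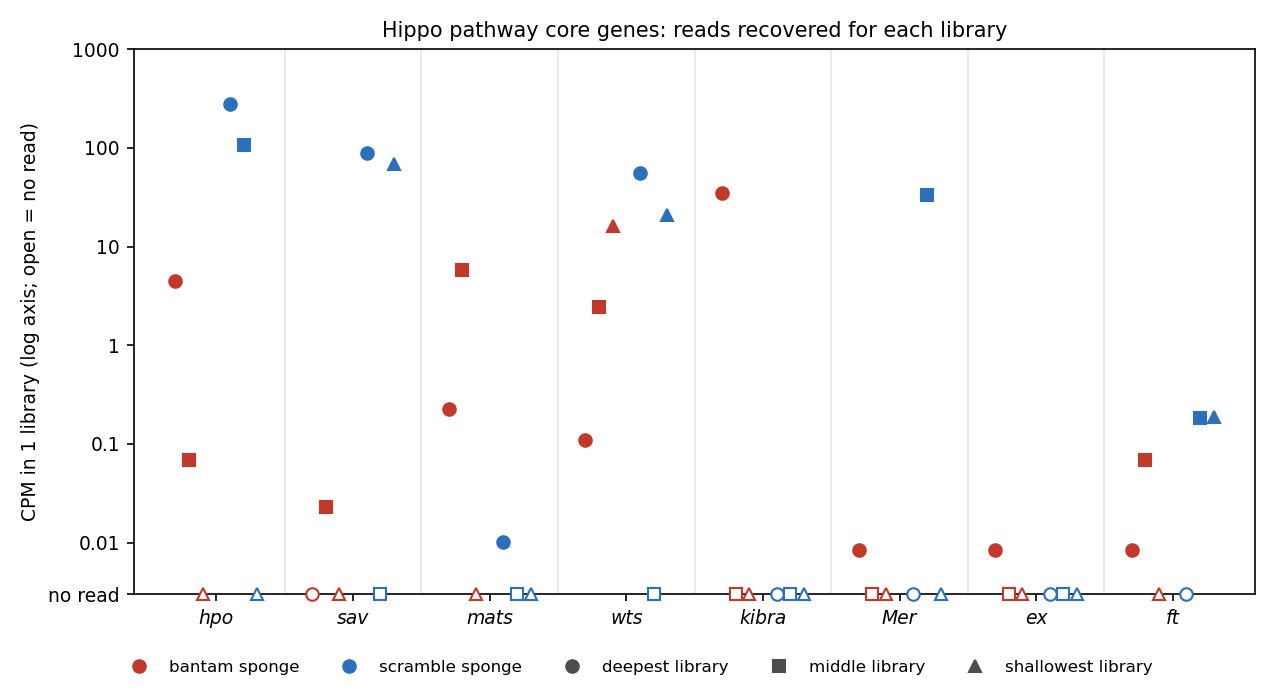
CPM in each library, on a log axis, for the 8 core genes whose reads were recovered; red marks bantam sponge and blue scramble sponge libraries, the symbol gives the depth order, and open symbols on the lower line are libraries with no read. Of the 48 values 25 are libraries without a read, and the groups overlap for all 8 genes.

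Yorkie and Scalloped were the best measured core genes, and their intervals were wide all the same. For yki (FBgn0034970; 2R, 24065975 to 24068485, minus strand, dm6), the coactivator at the end of the cascade, the mean log2 CPM in the authors' deposited table was 7.42, above 84.0% of the genes with reads. Levels inferred from the deposited mean and fold were 251 CPM with the bantam sponge and 92.6 CPM with the scramble sponge. The log2 fold change in the authors' deposited table was 1.44 (edgeR exact test p = 0.438), with a 95% interval of −2.54 to 5.42, so anything from a 0.171-fold to a 42.7-fold level lies inside it. A larger absolute log2 fold change was found for 19.8% of the 1148 genes within 0.5 log2 CPM.

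For sd (FBgn0003345; X, 15804370 to 15827682, plus strand, dm6), which encodes the TEAD-family DNA-binding partner of Yorkie, the inferred levels were 72.7 CPM with the bantam sponge and 128 CPM with the scramble sponge. The authors' deposited table lists a mean log2 CPM of 6.65, a log2 fold change of −0.81 and an edgeR exact test p of 0.688 for sd. The interval was −5.29 to 3.67, and 51.2% of the 1337 genes at a like level had a larger absolute fold. For both genes too many sets of reads gave the deposited mean to be searched, so values per library and SDs are not given.

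The cortical regulators were each seen in few libraries. For kibra (FBgn0262127; 3R, 14697689 to 14724261, minus strand, dm6), a WW-domain protein that activates the kinases, all 4160 reads lay in the deepest bantam sponge library, at 34.9 CPM. No other library of either genotype held a read of kibra, so the groups overlapped at 0. Against a floor of 3 reads over the 3 scramble sponge libraries the pooled level was at least 1191-fold higher with the bantam sponge, and without that 1 library no read is left. The authors' deposited table gives an edgeR exact test p of 0.113 for kibra. Among genes with reads 20.0% had all of them in 1 library, and among the 426 genes with a mean log2 CPM of 2 to 3, the range that holds kibra, 26.8%.

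For Mer (FBgn0086384; X, 19689697 to 19693500, minus strand, dm6), the Merlin protein that acts with Kibra and Expanded, the middle scramble sponge library held 1463 reads, or 33.6 CPM. The deepest bantam sponge library held 1 read of Mer and the other 4 libraries none. One library of 6 was high, and the other 2 scramble sponge libraries could not be told from those of the bantam sponge at this depth, so the groups overlapped. Pooled, the level was 1703 times higher with the scramble sponge (exact counting interval 305 to 67317), and without the middle scramble sponge library a single read is left. The authors' deposited table has a log2 fold change of −10.81 and an edgeR exact test p of 0.0922 for Mer. Of the 426 genes within 0.5 log2 CPM of Mer, 43.9% had a larger absolute log2 fold change.

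The gene ex (FBgn0004583; 2L, 431227 to 448701, plus strand, dm6) encodes the cortical FERM-domain protein Expanded and is itself a well known target of Yorkie. It had 1 read in all, in the deepest bantam sponge library, and no fold is given. Exons of ex share 448 bases with crq on the opposite strand. The cadherin gene ft (FBgn0001075; 2L, 4198404 to 4221796, minus strand, dm6) held 1, 3 and 0 reads in the bantam sponge libraries and 0, 8 and 1 in the scramble sponge libraries, from deepest to shallowest. Both groups held a library without a read and overlapped. Means for ft were 0.0257 ± 0.0374 CPM (SD, n = 3) and 0.124 ± 0.107 CPM (SD, n = 3), and the authors' deposited table gives a log2 fold change of −1.98 with an edgeR exact test p of 0.552.

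Over the 8 genes with recovered reads, the number seen differed between libraries. The deepest bantam sponge library held reads of 7 of the 8, the middle one of 5 and the shallowest of 1. For the scramble sponge the counts were 4, 3 and 3 from deepest to shallowest. None of the 8 had reads in all 6 libraries: wts had them in 5, hpo and ft in 4, sav and mats in 3, Mer in 2, and kibra and ex in 1. The libraries with high levels were not the same for each gene. Of hpo, sav and Mer, hpo was high in the deepest and middle, sav in the deepest and shallowest, and Mer in the middle alone. Thus hpo and sav, which work as a complex, were both high in the deepest scramble sponge library and in no other library together.

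Upstream genes beyond the core had log2 fold changes on both sides of 0, and none passed the adjusted test. Of 32 listed regulators 28 had reads, 11 with a log2 fold change above 0 and 17 below, against 53.5% of all genes with reads below 0. At an unadjusted edgeR exact test p under 0.05, 1 was lower and 0 were higher, against 3.12% and 1.06% of all genes with reads. The median log2 fold change of these regulators was −0.55, and the median of its absolute value was 1.19, against 1.58 over all genes with reads. The 3 with the highest mean log2 CPM were mts, Mob4 and Zyx; mts and Mob4 belong to the STRIPAK phosphatase complex that restrains Hippo, and Zyx is the zyxin that helps Fat signals reach Warts. The authors' deposited table gives them log2 fold changes of 0.21 (95% interval −2.69 to 3.10), 0.81 (−2.65 to 4.27) and 0.96 (−2.70 to 4.61). The cadherin gene ds, which encodes the ligand of Fat, and fj, d and CG10933 (Dlish), which act with it, had no read in any library.

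The upstream gene under an unadjusted p of 0.05 was Rassf, which encodes an antagonist of Hippo that competes with Salvador. Bantam sponge libraries held no read of Rassf, while scramble sponge libraries held 2821, 2273 and 25 reads, or 28.8, 52.2 and 4.71 CPM from deepest to shallowest. All 3 scramble sponge libraries lay above all 3 bantam sponge libraries, and the pooled level was at least 1986-fold higher with the scramble sponge against a floor of 3 reads over the genotype. The shallowest bantam sponge library, with a floor of 0.367 CPM, also lay below the lowest of these. The authors' deposited table gives an edgeR exact test p of 0.0178 for Rassf, and its adjusted p was 1. Rassf is shown because of this low unadjusted p. The share of all genes whose groups do not overlap is not known, since reads per library were recovered for few genes. The mean log2 CPM of Rassf was 3.84. Among the 773 genes within 0.5 log2 CPM of wts, which stood at 3.99, 11.9% had an unadjusted edgeR exact test p under 0.05.

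A further list held 3 genes of the related Tricornered kinase, which acts beside Warts in neurons, and melt. All 4 had a log2 fold change below 0, that of melt from 1 read, against 53.5% of all genes with reads. Of the 4, 0 were under the unadjusted threshold of 0.05, against 4.18% of all genes with reads. For the kinase gene trc the authors' deposited table gives a log2 fold change of −0.29 (95% interval −5.94 to 5.36), for its cofactor Mob2 −0.33 (−5.25 to 4.59) and for the scaffold fry −0.89 (−13.19 to 11.42). The list's median was −0.61, or −0.33 with melt, which had 1 read, left out.

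**Figure D4:**
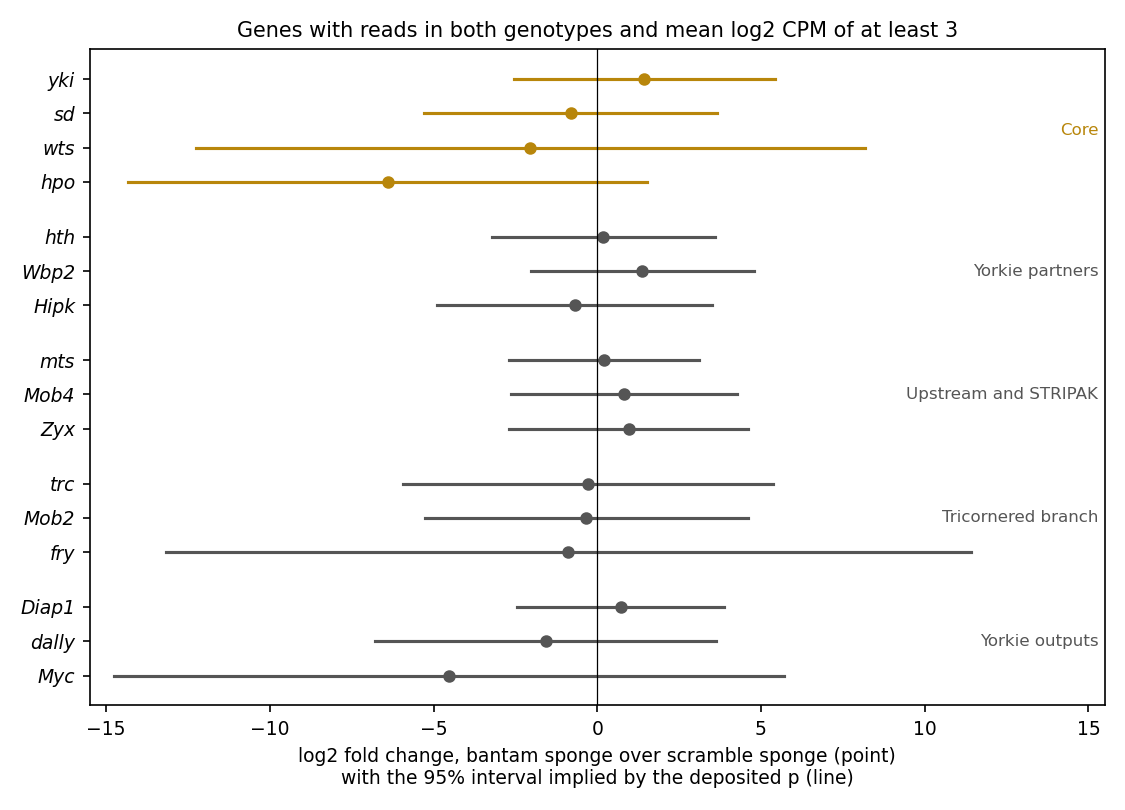
Deposited log2 fold change (point) and the 95% interval that the deposited p implies (line) for core genes and for the named genes of the other pathway lists with reads in both genotypes whose mean log2 CPM was 3 or more. Marker genes of cell types are not shown, nor is sav, whose bantam sponge level rests on 1 read. Every interval plotted spans 0; among them that of mts is the narrowest, at −2.69 to 3.10, and that of fry the widest, at −13.19 to 11.42.

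Partners of Yorkie and Scalloped lay on both sides of 0. Of 15 listed, all with reads, 7 had a log2 fold change above 0 and 8 below, with a median of −0.35 and 0 under an unadjusted edgeR exact test p of 0.05. Over all genes with reads, 53.5% lay below 0 and 4.18% were under that p. The most abundant were hth, a homeodomain partner of Yorkie, Wbp2, a WW-binding coactivator, and Hipk, a kinase that promotes Yorkie activity. The authors' deposited table lists log2 fold changes of 0.19 (95% interval −3.22 to 3.60) for hth, 1.37 (−2.03 to 4.77) for Wbp2 and −0.69 (−4.89 to 3.50) for Hipk.

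Outputs of Yorkie were read for 7 of 13 listed genes, 2 with a log2 fold change above 0 and 5 below, with a median of −1.64, or −3.06 over 6 genes with those lacking reads in 1 genotype at their bound. The most abundant was Diap1, the inhibitor of apoptosis, at a log2 fold change of 0.71 (95% interval −2.45 to 3.88) in the authors' deposited table. Next were dally, a glypican, at −1.58 (−6.80 to 3.64), and Myc, the growth regulator, at −4.53 (−14.76 to 5.70), again from the authors' deposited table. At an unadjusted edgeR exact test p under 0.05, 1 output was lower and 0 were higher, against 3.12% and 1.06% of all genes with reads. Of those genes 53.5% had a log2 fold change below 0. The 1 output was vn, which encodes a ligand of the EGF receptor, for which the authors' deposited table has an edgeR exact test p of 0.0352, adjusted p of 1. Its scramble sponge libraries held 3, 4727 and 1 reads and its bantam sponge libraries none, so 1 library carried 99.8% of the summed CPM.

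The row ban had no read in any library. The hairpin (3L, 642208 to 642288, plus strand, dm6) lies inside the noncoding gene CR43334 (3L, 628435 to 643900) on the same strand, so a read over it falls in both features, and how such reads were counted is not stated. CR43334 held 0, 1241 and 0 reads in the bantam sponge libraries and 0, 8 and 49 in the scramble sponge libraries, from deepest to shallowest. The middle bantam sponge library was the highest at 28.4 CPM, the shallowest scramble sponge library followed at 9.23 CPM, and the groups overlapped. For CR43334 the authors' deposited table gives a log2 fold change of 1.60 with an edgeR exact test p of 0.756. Poly(A) libraries do not measure the mature microRNA, so its level or sequestration is not checked by these values.

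Several markers of other cell types were high in some scramble sponge libraries, as hpo, sav, Mer, Rassf and vn were. The glial gene moody had all its 2762 reads, 23.2 CPM, in the deepest bantam sponge library, which also held all 4160 reads of kibra. That library held all the reads of 370 of the 9286 genes with reads, 123 of them at a mean log2 CPM above 0. Of 5 hemocyte (blood cell) markers 4 had reads, 3 with a log2 fold change below 0; their summed level was 728 CPM with the bantam sponge and 1809 CPM with the scramble sponge, and He had no read. In the authors' deposited table PPO1, a prophenoloxidase of crystal cells, had a log2 fold change of −19.11 (edgeR exact test p = 0.00063), a fitted value that depends on the prior count. With a mean log2 CPM of 9.38, PPO1 made up most of the scramble sponge sum of the hemocyte markers. By contrast Pxn, a peroxidasin of hemocytes, had a log2 fold change of 0.72 in the authors' deposited table, where its mean log2 CPM was 9.19. Nearly all of the bantam sponge sum of the hemocyte markers was Pxn. All 5 photoreceptor markers lay below 0, with summed levels of 99.1 CPM and 250 CPM. The one with the highest mean log2 CPM, norpA, had a log2 fold change of −0.38 in the authors' deposited table, where its mean log2 CPM was 6.63. Of 4 fat body markers 3 lay below 0, with summed levels of 232 CPM with the bantam sponge and 175 CPM with the scramble sponge, where FASN1 made up most of the former. Beside these marker counts, 53.5% of all genes with reads had a log2 fold change below 0.

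These markers were not high in the same libraries as each other. The hemocyte genes Hml and Sr-CI were at 27.2 and 62.4 CPM in the middle scramble sponge library, where Mer and vn were high. The photoreceptor genes ninaE and Arr2 reached 97.4 and 125 CPM in the shallowest scramble sponge library, where sav was at 68.4 CPM and hpo had no read. Arr2 also had 61 reads in the middle scramble sponge library, which held all 72 reads of the photoreceptor gene ninaC. The fat body gene Yp1 was at 92.3 CPM in the middle and 6.14 CPM in the deepest scramble sponge library, and Yp3 at 35.1 CPM in the middle and 56.0 CPM in the shallowest. In the deepest scramble sponge library, where hpo, sav and wts were highest, Hml, Sr-CI and Arr2 had no read. There Yp3 had 1 read, ninaE had 2 and Yp1 had 602. The deepest scramble sponge library held no read of moody or ninaC either. Reads per library were not recovered for the remaining markers, among them PPO1, Pxn, norpA and FASN1, so their levels in that library are not known. The part of these cell types in the levels of the pathway genes was not tested.

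**Figure D5:**
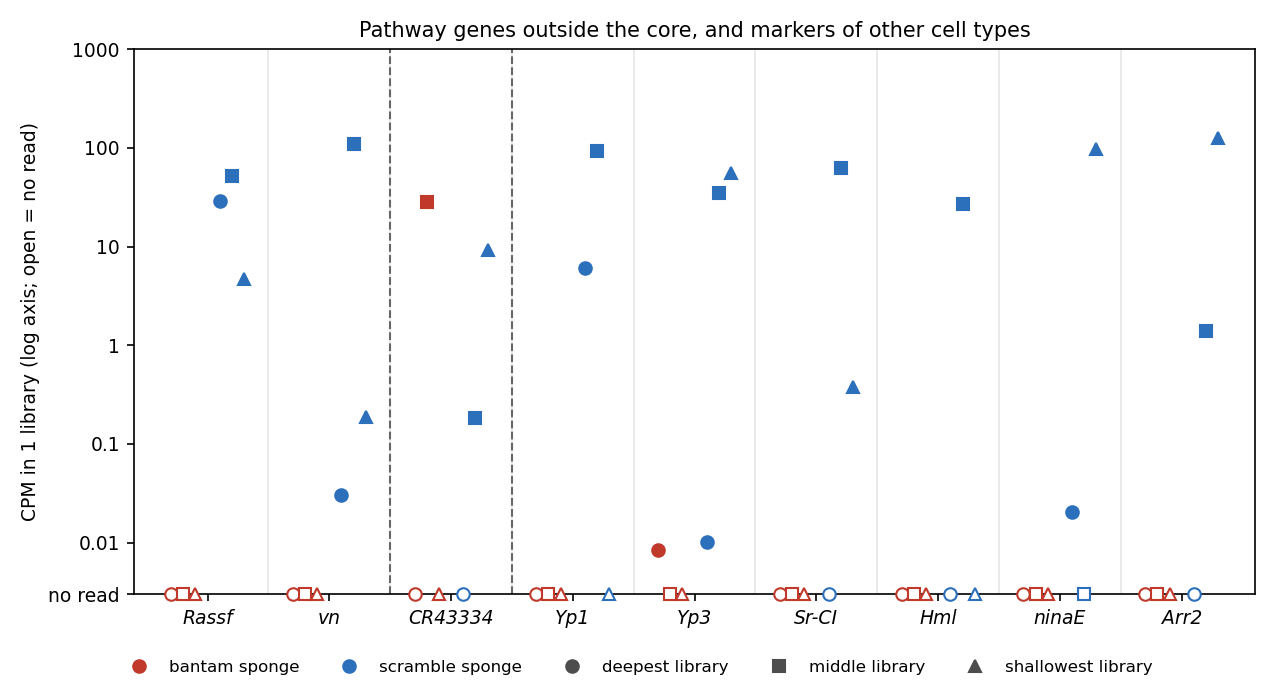
CPM in each library, on a log axis, for the pathway genes Rassf and vn, the bantam host gene CR43334, and markers of fat body (Yp1, Yp3), hemocytes (Sr-CI, Hml) and photoreceptors (ninaE, Arr2), with symbols as in the plot of core genes. The bantam sponge libraries hold no read of the markers plotted except 1 of Yp3; others of the same lists, such as Pxn, norpA and FASN1, had reads in both genotypes and are not shown. The scramble sponge libraries that are high differ from marker to marker.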

How the data were processed

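Messenger RNA of sorted neurons was compared between 3 bantam sponge and 3 scramble sponge libraries. Per the series design text, cDNA made by a modified SMART-seq2 protocol was sequenced as paired reads of 75 bases for 2 replicates and 150 bases for 1; the submitters' processing notes name STAR, Picard, HTSeq, edgeR and dm6, without versions. The deposited table holds log2 fold changes, mean log2 CPM and unadjusted p-values, which per the file headers and its name come from the authors' edgeR exact test. Symbols were matched to the Ensembl release 115 annotation.

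The table holds no counts, so no count test was run here. Its values were inverted instead (R 4.3.3, numba 0.67.0). Library sizes and a common dispersion of 4.50 were solved from genes with 1 read, taking prior counts of 2 for the mean and 0.125 for the fold; all 243 low genes left out of this solution fell within 1e-10 of a value for 2 to 6 reads. The sizes include any normalization factor. A library's genotype follows from the sign of the deposited fold of those genes; no library was matched to a sample. Sets of whole reads per library were enumerated, and a set was accepted where the negative binomial formulas of the authors' test returned the deposited mean, fold and p, the first 2 within 1e-09. Exactly 1 set was found for 8 core genes, within the range of genotype totals searched. Intervals of 95% come from the dispersion that the deposited p implies, at equal CPM within a genotype. The match of the recovered reads and intervals to the authors' counts was not tested, since the table holds no counts. Benjamini-Hochberg adjustment of the authors' deposited p-values covered all 17117 genes, threshold 0.05.

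The labels call the libraries biological replicates; p-values measure the spread between these libraries. Members and lists were chosen with earlier results of these data known. Named genes are the 10 core genes, from each further list the 3 with the highest mean log2 CPM and all with an unadjusted p under 0.05, and ban with the gene around its hairpin. Outside this rule, ds, fj, d and CG10933 are named for having no read and melt for its single read. Marker genes come from lists for other cell types. Sequences were not analysed here.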

Additional observations from a re-analysis of the deposited data

How the results depend on the processing

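No core gene passed an adjusted p of 0.05 under the Holm adjustment, over genes with reads only, or over genes at a mean log2 CPM of 3 or more. At an unadjusted p of 0.01 the count of core genes fell to 0, and at 0.1 it was 4. The core median was −2.04 over members at a mean log2 CPM of 3 or more and −0.81 over the 7 members that share no exonic bases with another gene; the cause was not tested. Leaving out each library in turn, an alternative chosen after seeing the data and made as a value with no test, turned no sign where both genotypes kept reads: the log2 ratio of mean CPMs ran from −11.87 to −5.14 for hpo, from 5.06 to 9.80 for mats and from −4.88 to −1.69 for ft, and for wts, sav and Mer it moved by less than the spread between libraries. Without its 1 high library, kibra has no read. Without the middle scramble sponge library, Mer has 1 read, with the bantam sponge, so its direction changes, a case that this condition leaves out. For sav and mats the lower genotype held 1 read and the higher one had reads in 2 libraries. At least 1 of these libraries always remained, so the sign could not turn. A normal interval in place of the exact one also spanned 0 for yki, sd, wts and hpo. No paired analysis was possible because the recovered libraries carry no replicate number. The motif count was not run, since no sequence was used here. Depth limits the shallowest libraries most, where 0 reads allow up to 0.367 and 0.565 CPM.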
